A study of Drosophila melanogaster with 2 samples.

Results

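Mitochondrial ribosomal protein genes are the nuclear genes that encode the protein part of the mitochondrial ribosome. They were taken as all protein-coding genes of Drosophila melanogaster with a symbol made of mRpL or mRpS, a number and at most 1 further letter. This gave 73 genes, 47 of the large subunit and 26 of the small subunit, among 13945 protein-coding genes on the arms X, 2L, 2R, 3L, 3R and 4. The measurement was chromatin immunoprecipitation followed by sequencing (ChIP-seq) for CG2875, in a transgenic fly line in which this protein carries green fluorescent protein at its C-terminus and an antibody against that tag recovers the bound DNA. Both libraries were biological replicates of the same group, whole embryos of pooled sex collected from 0 to 14 h, so no second condition was compared, and any value averages over all embryonic cell types. The labels do not say what drives the transgene, and an untagged or mock immunoprecipitation was not analysed here. Depth in reads is unknown from peak lists.

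The mitochondrial ribosome translates the few messenger RNAs that the mitochondrial genome encodes, whose products are core subunits of the respiratory chain and the ATP synthase. All of its proteins are made in the cytoplasm from nuclear genes and imported, so their supply depends on nuclear promoters. The small subunit binds the messenger RNA and decodes it, and the large subunit joins amino acids and holds the exit channel of the new chain. Many of these proteins descend from bacterial ribosomal proteins and keep their numbers, and others are found in mitochondria alone.

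A peak was counted at a promoter when its summit lay within 500 bp of any annotated transcription start site (TSS) of the gene, and the strongest such peak scored the gene. Strength is the peak caller's signal value as the authors deposited it, which ranks peaks within a list and is not a read count. The authors' IDR list holds the 4278 peaks kept by the irreproducible discovery rate, a measure of how well replicates rank peaks alike. At every member in the IDR list its signal and rank equal those in the pooled list. The authors made the pooled list from the alignments of the 2 replicates combined. The pooled list and the list of each replicate are longer, at 30000 peaks each, and include background by design. Positions are 1-based on dm6, and upstream means against the direction of transcription of the named gene.

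Of the 73 genes, 15 had an IDR promoter peak (20.5%, exact 95% binomial interval 12.0 to 31.6%), and 14.0% of all protein-coding genes had one. The background lies inside that interval, so a share near the background is not a result about these genes. The 15 were 8 of 47 large-subunit genes (17.0%, 7.65 to 30.8%) and 7 of 26 small-subunit genes (26.9%, 11.6 to 47.8%), and these intervals overlap. Intervals cover counting error only, since both libraries lie behind every gene. Split by number, 10 of the 42 genes numbered as in bacteria (up to 36 in the large and 21 in the small subunit) and 5 of the 31 with higher numbers had an IDR promoter peak.

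**Figure D1:**
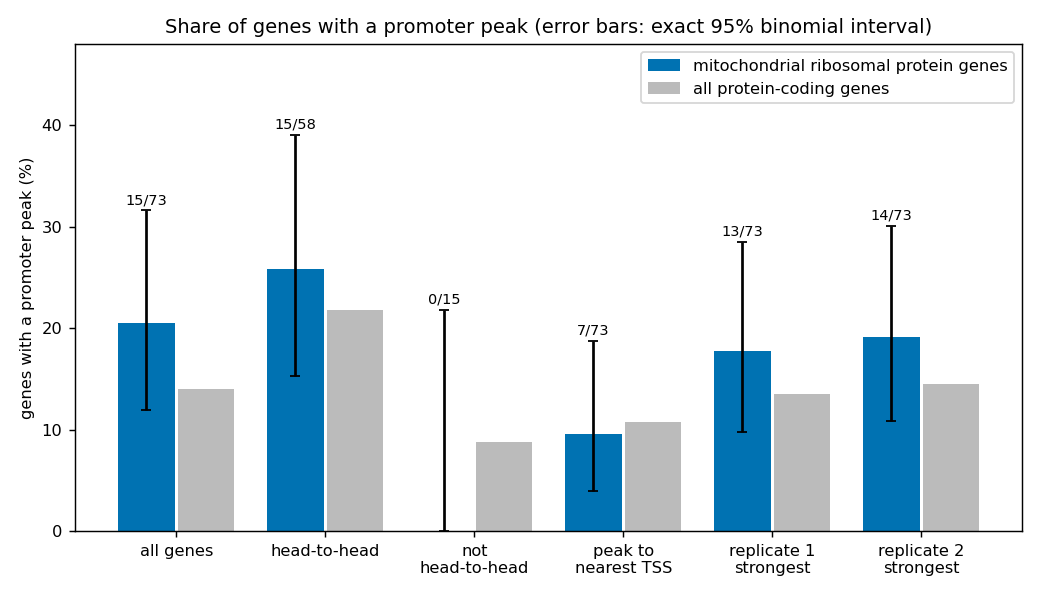
Percent of genes (vertical axis) with a promoter peak under 6 rules, for the mitochondrial ribosomal protein genes (blue, with exact 95% binomial intervals and counts) and for all protein-coding genes (grey). The intervals of the members hold the grey value under each of the 6 rules, and 0 of 15 members without a head-to-head neighbour had a peak.

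DNA around the summits is shown for the members with the strongest IDR promoter peaks for which sequence is given, since these windows carry the signal described next. Sequence was read from the NCBI Release 6 assembly on the strand of the member, 5′ to 3′. Capitals mark exact matches, on either strand, to a promoter motif on the list searched. The list held DRE, whose letters are TATCGATA, and the core of the insulator protein BEAF-32, the letters CGATA, which DRE contains. It held the core of promoter motif 1, searched as GGTCACAC, and that of promoter motif 5, searched as CAGCTG. The E-box of basic helix-loop-helix factors was searched in the form CACGTG alone, and the core site of Ets factors was searched as CCGGAA. An NRF-1 site was searched as GCGCATGC, and the GAGA site was searched as GAGAG. The TATA box was searched as TATAAA, and the core of the TCT initiator, found at cytoplasmic ribosomal protein genes, was searched as CTTTT. The NRG element was searched by its name. The first pair of sequences spans the whole stretch between a member's TSS and that of its head-to-head partner. These are Art3 to mRpS10 (chr3R:15229408-15229665, plus strand, 258 bases) and Mon1 to mRpS2 (chr2L:4850419-4850641, minus strand, 223 bases).
Art3 to mRpS10: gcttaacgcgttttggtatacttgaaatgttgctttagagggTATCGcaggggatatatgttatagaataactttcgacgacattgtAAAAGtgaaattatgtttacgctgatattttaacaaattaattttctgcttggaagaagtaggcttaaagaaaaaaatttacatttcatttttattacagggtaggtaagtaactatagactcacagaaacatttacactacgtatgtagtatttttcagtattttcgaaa
Mon1 to mRpS2: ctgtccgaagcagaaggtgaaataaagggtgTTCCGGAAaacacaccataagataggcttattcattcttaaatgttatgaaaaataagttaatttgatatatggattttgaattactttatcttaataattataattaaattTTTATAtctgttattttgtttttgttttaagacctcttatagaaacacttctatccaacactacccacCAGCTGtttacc
The others are 101 bases centred on the summit, at chr2L:13835399-13835499 (mRpS23), chr3L:2373536-2373636 (mRpL23), chr3L:13018157-13018257 (mRpL20) and chr2L:4945409-4945509 (mRpL24), all minus strand.
mRpS23: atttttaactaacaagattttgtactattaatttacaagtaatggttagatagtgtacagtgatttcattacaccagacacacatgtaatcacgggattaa
mRpL23: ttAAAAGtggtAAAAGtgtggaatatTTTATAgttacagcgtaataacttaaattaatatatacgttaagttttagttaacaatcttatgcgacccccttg
mRpL20: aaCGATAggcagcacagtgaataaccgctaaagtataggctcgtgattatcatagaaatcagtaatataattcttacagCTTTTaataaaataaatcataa
mRpL24: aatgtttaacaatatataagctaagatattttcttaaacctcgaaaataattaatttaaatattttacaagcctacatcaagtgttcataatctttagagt
Weaker peaks are shown by chr3L:4364419-4364519 (mRpS6, plus strand) and chr2L:16329242-16329342 (mRpL4, minus strand).
mRpS6: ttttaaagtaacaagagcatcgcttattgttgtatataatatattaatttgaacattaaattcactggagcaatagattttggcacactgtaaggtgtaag
mRpL4: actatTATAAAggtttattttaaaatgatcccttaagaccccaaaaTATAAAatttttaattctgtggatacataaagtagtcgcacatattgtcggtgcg
GC content of the printed stretches ran from 21.8% around the mRpL24 summit to 30.2% between Art3 and mRpS10, but 101 bases centred on the mRpS2 summit, not printed, held 40.6%. Over windows of 301 bp at all 15 member summits the median was 33.2% and the range 25.6 to 52.5%, beside a median of 37.2% at all coding promoter summits. The printed 101 bases of mRpS23, mRpL24 and mRpS6 hold no listed motif. Within 301 bp around the summit, mRpL24 held the motif 5 core and the TATA box. The 301 bp of mRpS6 held the motif 5 core and the TCT core. Of the motifs in capitals, the TCT core lies in 76.7%, the BEAF-32 core in 47.0%, the TATA box in 45.3%, the motif 5 core in 17.9% and the Ets core in 6.74% of all coding promoters of 301 bp. Those promoters are longer than any printed stretch, so the shares are not for windows of equal length.

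Among small-subunit genes the strongest peak belonged to mRpS23, a protein without a bacterial counterpart. Its signal was 1319 in the pooled list (rank 20), 607 in replicate 1 (rank 23) and 719 in replicate 2 (rank 18). The peak covers chromosome 2L positions 13835285 to 13835658, between genes, and its summit is 377 bp upstream of the mRpS23 TSS but 115 bp upstream of that of the divergent gene CenG1A. mRpS10, the counterpart of a bacterial protein of the small-subunit head, had 1283 in the pooled list (rank 22), 665 in replicate 1 (rank 15) and 612 in replicate 2 (rank 30). This peak (3R positions 15229360 to 15229709) sits near the middle of the stretch printed above, 133 bp upstream of mRpS10 and 124 bp upstream of Art3, a gene for an arginine methyltransferase. Both peaks were among the 30 highest of 30000 in each replicate.

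The other 5 small-subunit peaks were much weaker. mRpS2, the counterpart of a bacterial small-subunit protein, had a pooled signal of 341, with 180 in replicate 1 (rank 590) and 163 in replicate 2 (rank 966), and its summit was 20 bp upstream of the neighbouring Mon1 TSS and 202 bp upstream of its own. mRpS6, also of bacterial origin, had 157, with 83.4 and 75.0 (ranks 2276 and 3790), its summit 81 bp upstream. mRpS7 had 147, with 70.0 and 81.1 (ranks 2970 and 3353), and its summit lay 185 bp upstream of mRpS7 and 215 bp upstream of Cdk1, the kinase that drives entry into mitosis. The weakest were mRpS26 (133 pooled, 50.5 in replicate 1, 87.8 in replicate 2) and mRpS22 (133 pooled, 63.6 and 55.2), both without a bacterial counterpart. Each missed the strongest 4278 peaks of 1 replicate: mRpS26 ranked 4876 in replicate 1, and mRpS22 ranked 6129 in replicate 2. At both, the TSS of a divergent coding gene was nearer to the summit than their own. The mRpS26 summit lay 251 bp upstream of its own TSS and 179 bp upstream of the neighbour's. For mRpS22 these distances were 312 and 80 bp.

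Among large-subunit genes mRpL41, without a bacterial counterpart, came first. It had a pooled signal of 1091 (rank 40), 543 in replicate 1 (rank 34) and 554 in replicate 2 (rank 46), at 2R positions 15217594 to 15217928. Its summit was 139 bp upstream of its own TSS, and no coding TSS other than its own lay within 500 bp, although lncRNA:CR44463 starts 439 bp away. mRpL41 is thus the strongest member whose own TSS was the nearest. mRpL23, the counterpart of a bacterial protein at the rim of the exit channel, had 704 pooled, 351 in replicate 1 (rank 119) and 344 in replicate 2 (rank 186). Its 3 TSSs complicate the position: the summit is 85 bp upstream of the most downstream TSS and 118 bp inside the gene from the most upstream one, in an mRpL23 intron at 3L position 2373586.

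Next came mRpL20 and mRpL24, both counterparts of bacterial proteins that bind early in assembly of the large subunit. mRpL20 had 388 pooled, 224 in replicate 1 (rank 383) and 177 in replicate 2 (rank 835), with the summit 59 bp upstream of Icmt, a gene for a methyltransferase of prenylated proteins, and 340 bp upstream of its own TSS. mRpL24 had 314 pooled and 146 in replicate 1 (rank 888), and replicate 2 listed no peak near it: the nearest replicate 2 summit was 14693 bp away. Its IDR interval was only 112 bp wide, at 2L positions 4945438 to 4945549. Only 1 replicate list thus holds the mRpL24 peak, although the pooled and IDR lists do. Its rank was 876 in both of these lists, so its place in the IDR list followed pooled signal. That place is not support from replicate 2.

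The remaining 4 large-subunit peaks were moderate to weak, and each ranked higher in replicate 2 than in replicate 1. mRpL34 had 223 pooled, 85.0 in replicate 1 (rank 2213) and 131 in replicate 2 (rank 1456), with its summit 187 bp upstream of mRpL34 and 197 bp upstream of Dg, the dystroglycan gene. mRpL4, whose bacterial counterpart lines the exit channel, had 154, 55.1 (rank 4271) and 112 (rank 1937). It was the only one of the 15 whose summit, 160 bp upstream, had no TSS of a different gene inside the window. mRpL53 had 144 pooled, 39.8 in replicate 1 (rank 6976) and 96.0 in replicate 2 (rank 2537). Its summit lay 80 bp upstream of a TSS of AGO1, the microRNA effector gene, and 90 bp upstream of a TSS that mRpL53 shares with CG33155, so these genes cannot be told apart. mRpL11, a counterpart of a bacterial protein near the factor-binding site, was the weakest of the 15 with 123 pooled, 52.6 (rank 4598) and 81.9 (rank 3304). Its summit lay in the 5' UTR of HtrA2, which encodes a mitochondrial protease, 328 bp upstream of mRpL11.

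Signal was spread widely, from 123 to 1319, with few high values. The median pooled signal of the 15 was 223 (quartiles 145 and 546), beside 205 (148 and 326) for all 1946 protein-coding genes with an IDR promoter peak, and 8 of the 15 lay above the latter median. The median was 268 for the 8 large-subunit genes and 157 for the 7 small-subunit genes, whose values ran from 123 to 1091 and from 133 to 1319, so they overlap over nearly their whole range.

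**Figure D2:**
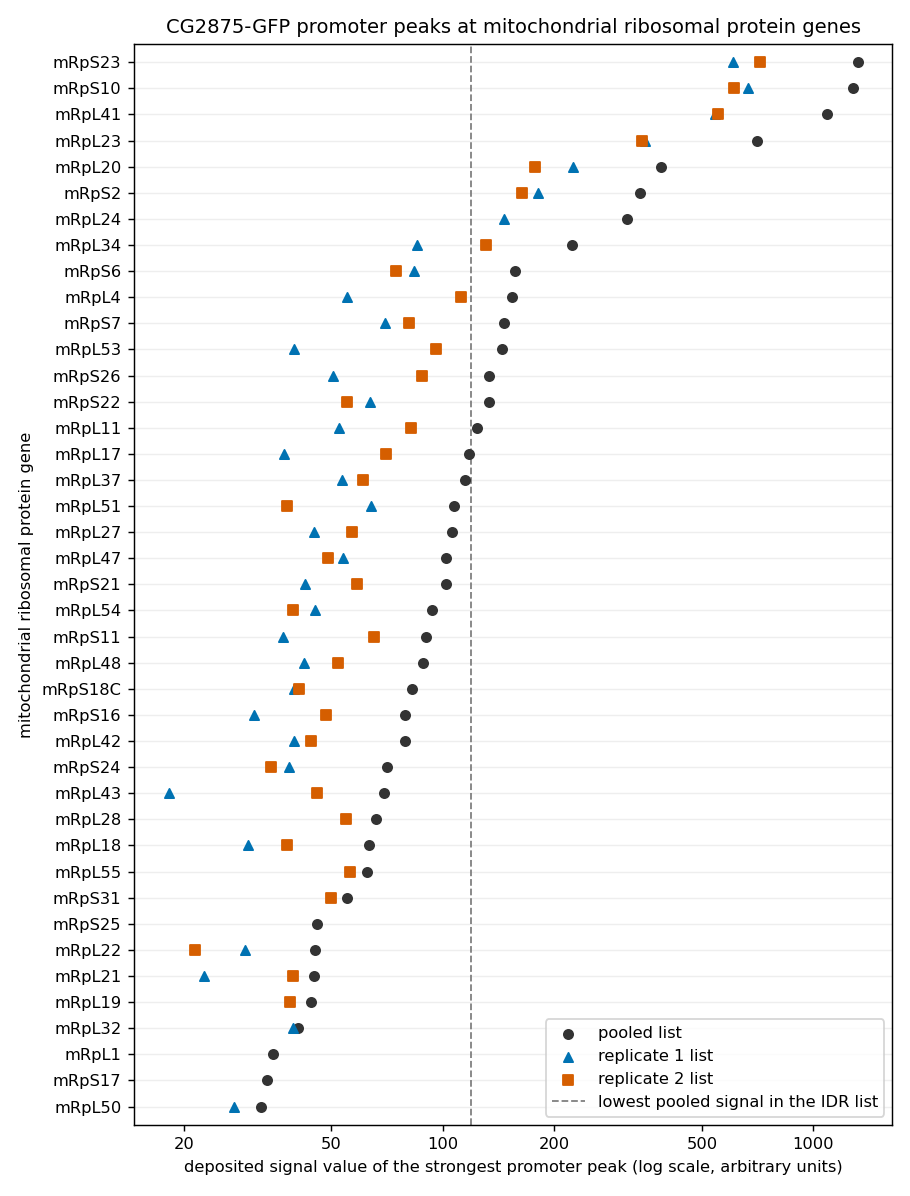
Deposited signal value of the strongest promoter peak (horizontal log axis, arbitrary units) of the 41 genes with a pooled promoter peak, in the pooled list (circles), replicate 1 (triangles) and replicate 2 (squares). The dashed line is the lowest pooled signal of the IDR list, 119. mRpS23, mRpS10, mRpL41 and mRpL23 stand apart at 704 and above in the pooled list, and mRpL24 has no square.

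Agreement between replicates was described across members listed in both. Across the 14 members with an IDR peak and a promoter peak in both replicate lists, Spearman's rho was 0.79 and Pearson's r 0.94 on log2 signals, and across all 31 members with a peak in both lists they were 0.75 and 0.93. These are descriptions across genes that share 2 libraries and a control alignment, and the few strong genes weigh on r. Both sets favour agreement by how they were chosen. Members with a peak in 1 replicate list, such as mRpL24 and 12 without a pooled peak, are left out. IDR is meant to keep peaks that the replicates rank alike. Yet every member with an IDR peak had the same rank in the IDR and pooled lists, down to 4083 at mRpL11. Their place in the IDR list thus followed pooled signal. The summits of the 14 were 0 to 112 bp apart between replicates, with a median of 11 bp. Of all 73 genes, 13 had a summit among the 4278 strongest peaks of replicate 1 (13.5% of all coding genes did) and 14 among those of replicate 2 (14.5% of coding genes). The count was 10 for both replicates at once (13.7%, against 10.7% of coding genes). The 5 IDR members not in that set were mRpL11, mRpL53 and mRpS26, weak in replicate 1, and mRpL24 and mRpS22, missing or weak in replicate 2.

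**Figure D3:**
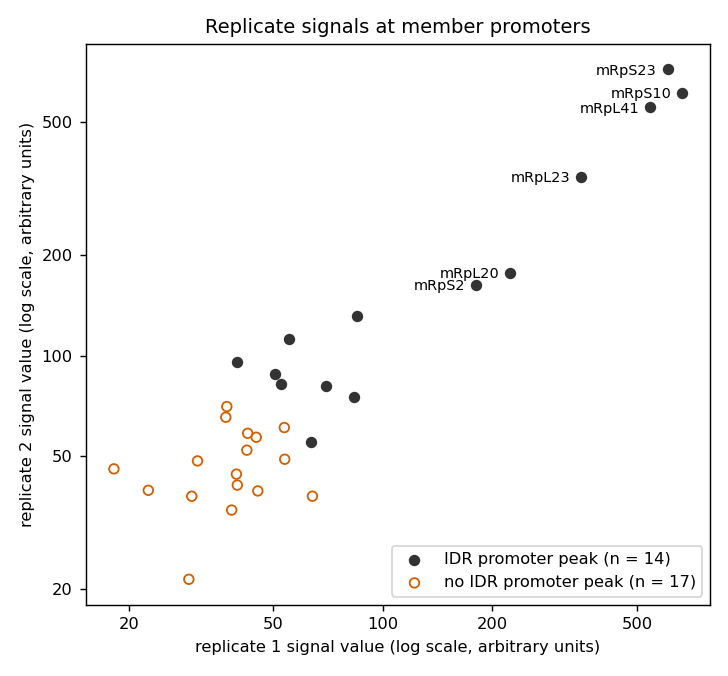
Signal value in replicate 1 (horizontal) and replicate 2 (vertical), both on log axes in arbitrary units, for the 31 genes with a promoter peak in both lists. Filled points are the 14 with an IDR promoter peak and open points the 17 without. The 6 labelled genes stand apart at the upper right, and the rest form 1 cloud in which both kinds adjoin.

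All 15 peaks lay at head-to-head promoters, where a gene on the opposite strand starts within 1000 bp upstream. The arrangement itself is common among these genes: 58 of 73 (79.5%) have it, beside 39.6% of protein-coding genes, and in each of the 58 the partner is protein-coding and is not another member. Of the 58, 15 had an IDR promoter peak (25.9%, exact interval 15.3 to 39.0%), and 21.8% of all head-to-head coding genes did. Of the 15 members without a head-to-head partner none had one (exact upper bound 21.8%), and 8.79% of such coding genes did. Nor did any of the 13 isolated members, those more than 1000 bp from the TSS of each other gene (upper bound 24.7%), against 8.44% of isolated coding genes. Both upper bounds lie above the background shares.

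Most of these peaks can be counted for the neighbour as well. In 13 of the 15 another protein-coding gene had a TSS within 500 bp of the summit, and for 13 of the 15 the summit fell between the TSS of the member and that of its partner. The exceptions to the latter were mRpL23, whose most upstream TSS is 24 bp from that of CG9004, and mRpL11. For mRpL11 this rests on the nearest HtrA2 TSS, 126 bp away. Its summit lies between the mRpL11 TSS and another HtrA2 TSS, which is 378 bp from mRpL11 and 50 bp from the summit. In 8 of the 15 the nearest TSS belonged to the other gene. Shares of all coding genes for these counts are not given here. Head-to-head promoters are common among them too, at 1206 of the 1946 coding genes with an IDR promoter peak. The counts are thus not a result about these members. When each peak was given to the gene with the nearest TSS alone, 7 of 73 members kept one (9.59%, exact interval 3.94 to 18.8%), against 10.8% of coding genes. The 7 were mRpL41, mRpL23, mRpL24, mRpL34, mRpS6, mRpL4 and mRpS7. A summit between divergent start sites does not show which gene, if either, the bound protein acts on.

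Summits were upstream of the nearest TSS of the member in 15 of 15 genes, at a median of 185 bp (range 81 to 377 bp), although at mRpL23 this holds for 1 of its 3 TSSs. For all coding genes with an IDR promoter peak the share was 82.2% and the median 134 bp. All of the 15 are head-to-head, but only 1206 of those 1946 coding genes are. Values for head-to-head coding genes alone are not given here, so the difference is not a result about the family. At the far side of the window, mRpS23 (377 bp), mRpL20 (340 bp) and mRpL11 (328 bp) were the members closest to the limit. Just outside it was only mRpL2, whose nearest IDR summit (signal 158) lay 762 bp upstream in an intron of its partner FoxK. The distance to the partner's TSS had a median of 392 bp (range 24 to 793) for the 15 members with a peak, 279 bp (20 to 695) for the 43 head-to-head members without, and 298 bp for all head-to-head coding genes. By a limit of 150 bp, chosen after the values were seen, 2 of 20 closely spaced members had an IDR promoter peak (18.3% of such coding genes did) and 13 of 38 with wider spacing (22.9% of such coding genes). Those 2 were mRpL23 and mRpL11. The start sites nearest to their summits are wider apart, at 227 bp for mRpL23 and 378 bp for mRpL11.

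**Figure D4:**
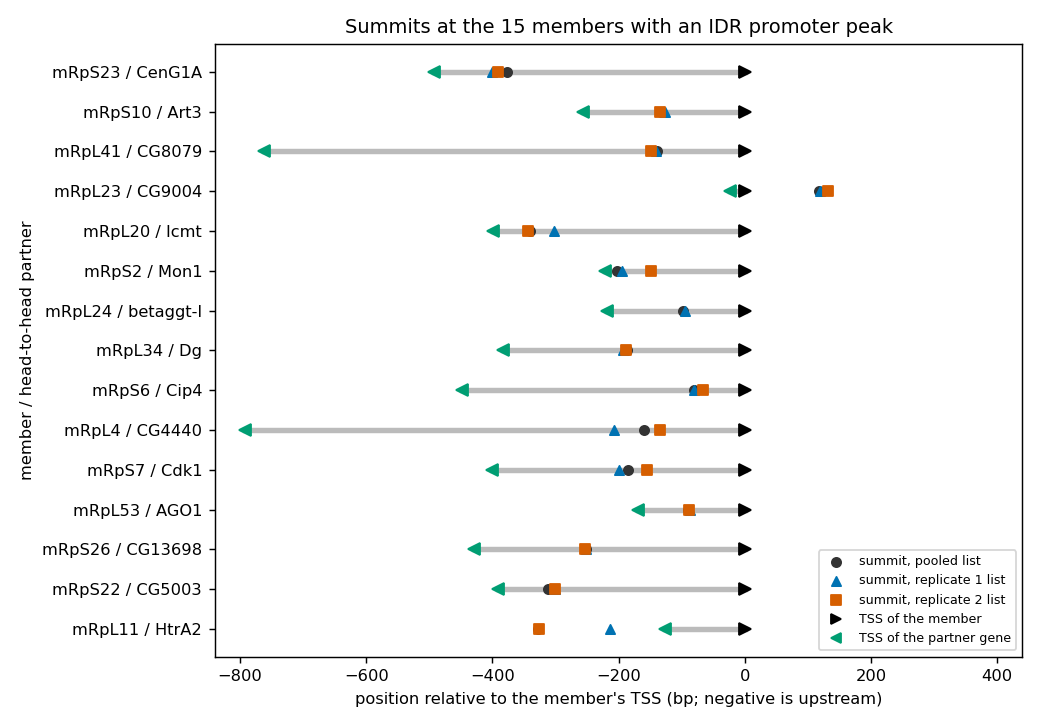
Summits of the pooled list (circles), replicate 1 (triangles) and replicate 2 (squares) at the 15 members with an IDR promoter peak, on a horizontal axis in bp from the member's TSS (black), with the partner's TSS in green and the stretch between them in grey. For 13 members the pooled summit lies on the grey stretch. It lies 118 bp downstream of the most upstream mRpL23 TSS, and at mRpL11 beyond the partner's TSS that is nearest to the member.

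Peaks at members lay on 4 arms. The 15 were 5 of 12 genes on 2L, where 14.6% of all coding genes had an IDR promoter peak, and 3 of 12 on 2R, where 13.0% did. They were 4 of 17 on 3L (14.5% of its coding genes) and 3 of 21 on 3R (14.8%). None of the 11 genes on X had an IDR promoter peak (exact upper bound 28.5%), where 12.4% of all X coding genes did, a share that the bound includes.

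Below the IDR list, 26 members had a promoter peak in the pooled list, which makes 41 of 73 (56.2%, exact interval 44.1 to 67.8%), and 45.3% of coding genes had one. In all 3 relaxed lists at once it was 31 of 73 (42.5%, 31.0 to 54.6%), against 33.9%. Signals of the 26 ran from 32.4 to 118 with a median of 69.9. The first, mRpL17, missed the IDR list narrowly with 118 pooled (rank 4377), 37.2 in replicate 1 and 70.4 in replicate 2 (rank 4186), and its summit was 6 bp inside the partner Tudor-SN, an RNA-binding protein gene. It was the only member without an IDR peak among the strongest 4278 of replicate 2. mRpL51 was the only one in replicate 1, with 64.0 (rank 3390), beside 37.9 (rank 10824) in replicate 2 and 107 pooled. Across the limit of the IDR list, pooled signal passed from 123 at mRpL11 to 118 at mRpL17, with no gap in strength.

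The next members were close to each other in strength. mRpL37 had 114 pooled (53.6 in replicate 1 and 60.9 in replicate 2). mRpL27 had 106 (44.8 and 56.9), and mRpL47 had 102 (53.7 and 48.9). mRpS21 had 102 as well (42.5 and 58.5). mRpL54 followed with 93.2 (45.3 and 39.3) and mRpS11 with 90.3 (37.0 and 65.4), whose summit lay 63 bp inside the gene. Of the 26 summits, 21 were upstream of the TSS and 5 were not (80.8% upstream). For all coding genes with an IDR promoter peak the share was 82.2%. That of coding genes with a pooled but no IDR promoter peak is not given here. The count of 21 is thus not a result about these members.

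A further 12 members had a promoter peak in 1 replicate list and not in the pooled list, with signals from 17.5 to 46.8, the highest mRpL16 in replicate 2 (rank 7830). The last 20 had no promoter peak in any list. They were mRpL2, mRpL9, mRpL13, mRpL14, mRpL33, mRpL35, mRpL36, mRpL38, mRpL39, mRpL45, mRpL46, mRpL49, mRpL52, mRpS9, mRpS14, mRpS18A, mRpS28, mRpS29, mRpS33 and mRpS35. Of these 20, 13 are large-subunit and 7 small-subunit genes. A list that ends at a fixed number of peaks sets no floor in reads, so binding at these promoters was not detectable in the lists, which does not show that it is absent. The shares of all coding genes in the same 2 states are not given here. Whether the counts of 12 and 20 are usual was not tested.

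Exact motif matches were counted in every promoter. In the window from 250 bp before to 50 bp after the TSS, the motif 5 core occurred in 40 of 73 members (54.8%), beside 17.9% of 13944 coding promoters. It was in 7 of the 15 with an IDR promoter peak and 33 of the 58 without. DRE, the site of the promoter factor Dref, was in 15 of 73 (20.5%) beside 8.94%, with 3 of 15 and 12 of 58. The motif 1 core was in 8 of 73 (11.0%) beside 7.54%, and in 0 of the 15. GAGA was less frequent, in 12 of 73 (16.4%) beside 30.3%. The NRG element, known from nuclear genes for mitochondrial proteins, was in 0 members and in 8 of all coding promoters, so an exact match is rare in this window. Windows of 301 bp around the 15 summits held the motif 5 core in 8, beside 20.3% of the 1463 summits at coding promoters, and DRE in 0 of 15, beside 7.04%. No test was made, and a match is a description of letters, not of a bound site. Median GC content of the promoters was 32.2% for the 15, 35.7% for the other 58 and 38.2% for all coding genes.

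**Figure D5:**
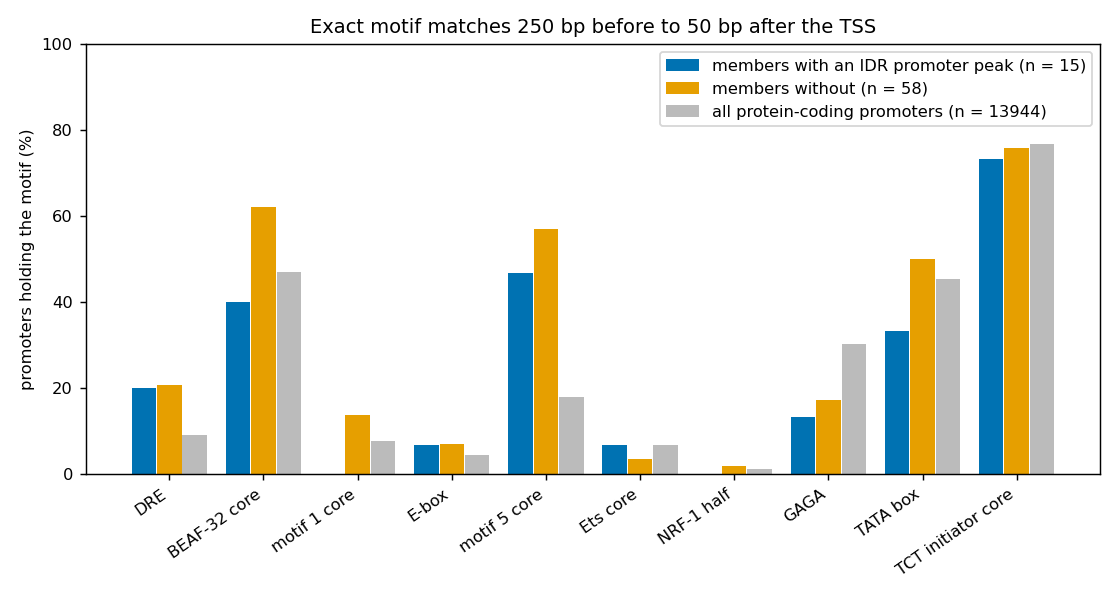
Percent of promoters (vertical axis) with an exact match to each of 10 motifs, from 250 bp before to 50 bp after the TSS, for the 15 members with an IDR promoter peak (blue), the 58 without (orange) and all 13944 coding promoters (grey). For the motif 5 core, DRE and the E-box both groups of members stand above the grey bar. The E-box, searched in the form CACGTG alone, rests on few genes, 1 of 15 and 4 of 58, beside 4.29% of coding promoters.

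Other genes of mitochondrial gene expression were counted in the same way. Of 33 listed symbols for factors of mitochondrial translation, transcription, RNA turnover and DNA maintenance, 29 matched a gene, and 3 of these (10.3%) had an IDR promoter peak, beside 14.0% of all coding genes. PNPase, which degrades mitochondrial RNA, had 1467 pooled with 686 in replicate 1 and 778 in replicate 2. mtSSB, which coats single-stranded mitochondrial DNA, had 433 (161 and 250), its summit 338 bp upstream. mTerf5, of the family that regulates mitochondrial transcription, had 121 (47.9 and 69.4), in a peak it shares with Non3. A further 13 factor genes had a pooled promoter peak below the IDR list, which makes 16 of 29, beside 45.3% of all coding genes. Their signals ran from 37.0 at the elongation factor gene mEFTu1 to 113 at GatA, which acts in making glutaminyl-tRNA. Of the small-subunit genes whose symbols do not follow the family pattern, tko and bonsai, neither had a pooled promoter peak.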

How the data were processed

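ChIP-seq peak lists of 2 biological replicates were analysed on dm6. Records deposited with the files show that peaks in every list come from replicate alignments and 1 control alignment common to both, and that IDR peaks were selected from the pooled and single-replicate peaks. Aligner, peak caller, software versions and IDR cutoff: not given in the sources used here. For each peak the authors deposited a signal value (column 7), used to rank peaks within a list, a -log10 q value, which is tied at 3.96 over the IDR list and was not used, and a summit offset. The dm3 lists were not used. TSSs came from all transcripts of the Ensembl release 115 annotation, without transposable elements (18164 genes). Sequence was read from the NCBI Release 6 FASTA, and 1 of 13945 coding genes lacked a full promoter window. Promoter motifs were searched at the canonical TSS.

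The members, the lists and the comparisons were chosen with earlier results of these data known, and no test was made. Named genes are all members with an IDR promoter peak, the next 8 by pooled signal, members without any peak, members 501 to 1000 bp from an IDR summit, neighbours within 500 bp, and pathway genes with an IDR promoter peak. mEFTu1, GatA, mRpL16 and the spacing limit were chosen after their values were seen. A neighbour of 1 named member is not reported here. Alternatives left out each replicate, used the stronger 50% of the IDR peaks, or changed the window or the assignment. The assignment was tested on simulated data with planted summits. Tables and exact intervals were made with Python 3.11.15, scipy 1.17.1, pandas 2.3.3 and numpy 2.4.6, and figures with matplotlib 3.10.9.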

Additional observations from a re-analysis of the deposited data

How the results depend on the processing

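The count of 15 members with an IDR promoter peak was 13 to 14 in single replicates at the same list length, 10 and 16 with windows of 250 and 1000 bp, and 15 with TSSs of coding transcripts alone. It changed by more than 1.5 times under 3 settings. In the stronger 50% of the IDR peaks it was 8 (5 large-subunit, 3 small-subunit, 8 upstream, 4 nearest to their own TSS), with 7.80% of coding genes and a median signal of 546. With the TSS inside the peak interval it was 8 (5 and 3, 8 upstream), with 8.51% of coding genes and a median of 190. With each peak given to the nearest TSS it was 7 (5 and 2, 7 upstream), with 10.8% of coding genes. The 250 bp window left 4 small-subunit genes, 10.7% of coding genes and a median of 268, and the 1000 bp window gave 17.0% and 191. Medians in single replicates were 122 to 146, on their own scales. The 3 mitochondrial factors numbered 2 to 3 under the 8 settings. Peak lists hold no read totals, so depth sets a limit that cannot be stated. No paired analysis was possible because the samples form 1 group.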

Other observations

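A pair of genes of the mitochondrial ribosome, chosen after their values were seen, had a promoter peak among the 4278 strongest of 1 replicate list and none in the other. mRpL24 had a signal of 146 (rank 888) in replicate 1 while the nearest replicate 2 summit was 14693 bp from its IDR summit, yet 314 in the pooled list. The gene tko, which encodes the counterpart of a bacterial small-subunit protein at the decoding site, had a replicate 2 summit 33 bp upstream of its TSS with a signal of 73.9 (rank 3892, below the median of 106 of those peaks) and no promoter peak in replicate 1 or in the pooled list. What separates the replicates at these promoters was not tested.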
